A study of Drosophila melanogaster with 23 samples.

Results

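Long noncoding RNAs are transcripts that do not encode protein, and this report describes 40 of them in heads of adult flies. The members were chosen by measured level: every gene whose FlyBase symbol starts with lncRNA: and that reached 50 normalized counts in 10 or more of 20 libraries was kept, apart from lncRNA:roX1, lncRNA:roX2 and lncRNA:CR44645, which were left out by name. lncRNA:flam was always included, because it had been called lower in CHD2/+ and CHD8/+ in earlier work on these libraries. It also passed the level rule, with 18 libraries at 50 or above. The 40 RNAs are a small part of the 1797 genes with such a symbol and of the 17559 genes listed. Below, they are written without the prefix lncRNA:.

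The flies were wild type (w1118) or heterozygous for a mutation in the fly ortholog of a gene associated with autism: ash1 for ASH1L/+, bchs for WDFY3/+, Chd1 for CHD2/+ and kis for CHD8/+. The study's stock list names the alleles ash1-mimic, bchs58, chd1[1] (also written Chd2[1]) and kis1. Heads were taken 5 to 7 days after pupation, and each genotype has 4 libraries, numbered 1 to 4. Each mutation was carried by its own stock, so an effect of a mutation and a trait of a stock cannot be told apart. A further set of 3 libraries from CHD8/+; PPP2R5D/+ flies lists 2 long noncoding RNAs, neither of them a member, and is not analysed here.

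The normalized counts of the libraries sum to between 3982750 in CHD2/+ replicate 1 and 8558270 in ASH1L/+ replicate 3. Apart from the rest stood 3 libraries: ASH1L/+ replicate 3 by its sum, and CHD2/+ replicate 1 and CHD8/+ replicate 4 by their distance from the libraries of the same number. Counts of called RNAs are therefore also given without these 3, a choice made after seeing the data. Another measure would choose otherwise. By the correlation of its deviations from the group means with those of wild type of the same number, CHD2/+ replicate 2 was lowest (0.073). It was kept. The tissue labels were checked against markers. The photoreceptor gene ninaE held 14956 to 46566 normalized counts, and the ovary genes osk, bam, otu, Vml and Fcp3C stayed at 7.6 or below in every library, while tj, a gene of ovarian somatic cells, held 11.5 to 125. In RNA from whole heads, fewer cells of a type and less RNA per cell cannot be told apart.

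Long noncoding RNAs act in several known ways in flies. Some scaffold nuclear bodies, some are precursors that are cut into small RNAs, and others overlap or neighbour a coding gene whose expression they can affect. Hsromega is the heat shock RNA that organizes omega speckles, nuclear bodies that hold RNA-binding proteins. CRG (CASK regulatory gene) acts on the neighbouring gene CASK in locomotion and climbing. let7C is the precursor of the miRNAs mir-100, let-7 and mir-125, which time development, and cherub is known from neural stem cells. flam (flamenco) is the precursor of piRNAs, small RNAs that silence gypsy-type transposons in the somatic cells of the ovary. The roles of most members with a CR number are not described here.

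All 40 members are annotated as ncRNA genes in BDGP6. They lie on chromosome arms 2L (4), 2R (7), 3L (9) and 3R (10), on chromosome 4 (1) and on X (9). Their spans run from 364 bases for CR43411 to 158841 bases for flam, with a median of 4219.5. A single exon in every transcript is annotated for 19 of them. Of the 40, 8 hold a miRNA gene within their span on the same strand, 20% of the members against 1.78% of all 1797 lncRNA genes. These are Hsromega (mir-4951), CR43650 (mir-8), CR43651 (mir-14), CR43459 (mir-277 and mir-34), CR46006 (mir-276a), CR43314 (mir-bft), CR31044 (mir-279 and mir-996) and let7C. In 9 members an exon overlaps the exon of a coding gene on the same strand, as CRG does with CASK and CR45197 with sgg, which encodes the kinase GSK3. The libraries were read from the 3' end of transcripts, and where exons overlap on the same strand, reads of the RNA and of the coding gene may have been shared. The span of 21 members overlaps no coding gene.

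One RNA, noe, held most of the signal. The 40 RNAs together made up 2.14% to 5.12% of a library's normalized counts, and noe (chromosome 3L, 17400272 to 17401348, 1 exon) alone made up 1.31% to 4.29%. Its level averaged 143501 normalized counts over the 20 libraries. mimi (3R, 23983503 to 23985065) averaged 18117, Hsromega (3R, 21296127 to 21317836) 4199, CR42862 (3L, 224106 to 230964) 3609 and CRG (3R, 21783540 to 21786208) 2419. The other 35 ran from 1319 for CR43650 down to 44.6 for CR44964. Values of this kind compare the same RNA between libraries. Between RNAs they are given per gene, as 3' reads do not scale with length.

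The level rule has a border. CR44506 was just inside, with 10 libraries at 50 or above and a mean of 57.0 normalized counts, as was CR44964 with 11 libraries. Just outside were CR45223 (9 libraries, mean 63.0) and CR45522 (9 libraries, mean 51.9). CR44964 fell as low as 2.59 normalized counts in one wild type library.

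**Figure D1:**
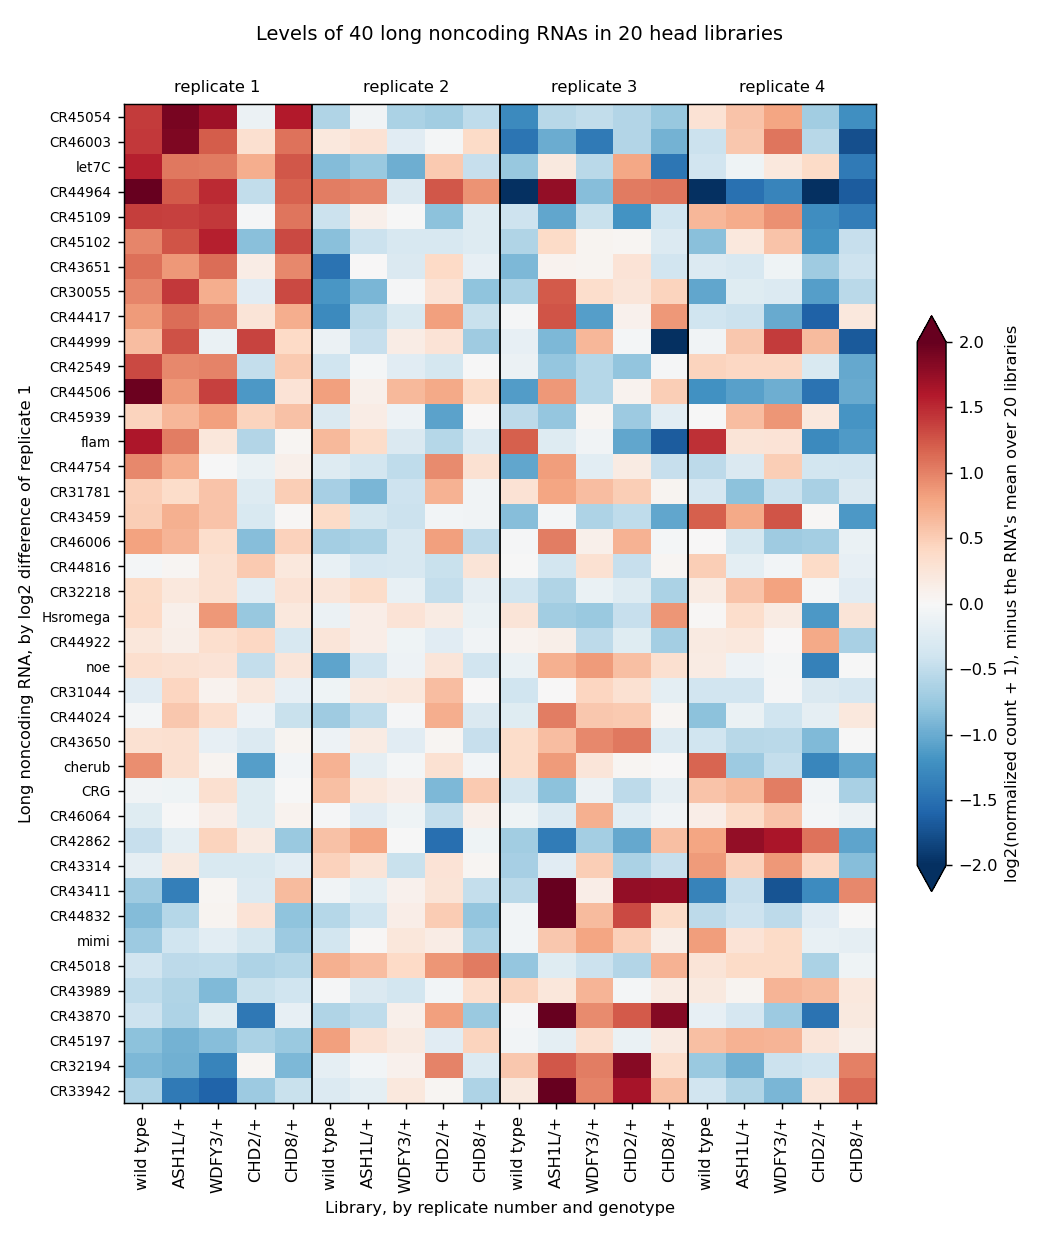
Level of each of the 40 RNAs (rows) in each of the 20 libraries (columns, by replicate number and then genotype), as log2(normalized count + 1) minus the mean of that RNA over all libraries. Colours saturate at 2 and -2. Columns of the same replicate number look alike in many rows, most of all for replicate 1, where CHD2/+ is paler than the other 4 genotypes.

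The first comparison asked whether a mutation changed the level of these RNAs relative to wild type. None of the 39 members other than flam was called in any of the 4 mutants. Calls were made with limma on log2(normalized count + 1) over the 9588 genes that reached 10 normalized counts in 4 or more libraries, and needed an adjusted p (Benjamini-Hochberg) below 0.05 together with a change of 1.5-fold or more. Calls were rare over all genes too, at 0.0939%, 0.0521%, 0.188% and 0.271% of the genes tested for ASH1L/+, WDFY3/+, CHD2/+ and CHD8/+, so that few would be found among 39 genes at that rate. Before adjustment, limma's p was under 0.05 for 0, 1, 1 and 3 members in ASH1L/+, WDFY3/+, CHD2/+ and CHD8/+, against 2.61%, 3.26%, 6.93% and 3.74% of all genes. The median log2 difference of the 39 was 0.15, 0.16, -0.05 and 0.01 in the same order of mutants, and that of all genes was 0.03, 0.01, -0.02 and -0.01. The median standard error of the members' differences was 0.43 on the log2 scale, so that many changes of the threshold size were not detectable here. With replicate number as a block 0 members were called as well, against 0.209%, 0.25%, 1.21% and 0.741% of all genes, with 4, 3, 7 and 5 members at an unadjusted p under 0.05, where 6.22%, 7.41%, 18.8% and 9.27% of all genes were. Among markers of other cell types, no gene was called in any mutant, but 7 of the 9 tested cuticle and trachea genes had an unadjusted p under 0.05 in CHD8/+, with a median log2 difference of 2.21. Their part in the values of the RNAs was not tested.

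**Figure D2:**
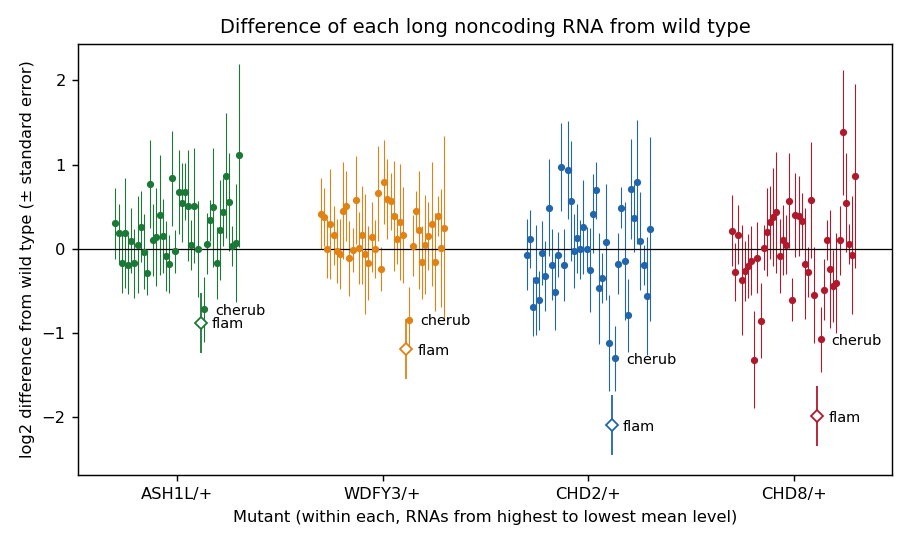
Log2 difference from wild type (y axis, with its standard error) of each of the 40 RNAs in the 4 mutants (x axis, RNAs ordered by mean level within each mutant). The open diamond is flam, whose values in CHD2/+ and CHD8/+ chose it, at -2.10 and -1.99. The other RNAs lie between -1.32 and 1.38, and cherub is below 0 in each mutant.

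flam was lower in each mutant than in wild type, and its values are a description, since the difference in CHD2/+ and CHD8/+ is what added it. It lies on X from 21631891 to 21790731, and no coding gene is annotated within its span. Annotated transposable elements were left out of that search. Whether reads of such elements were counted as flam was not tested. The normalized counts in wild type replicates 1 to 4 were 373, 190.5, 277 and 335. In ASH1L/+ they were 247, 157, 101 and 145, and in WDFY3/+ 142, 98.7, 115 and 146. Every WDFY3/+ library was below every wild type library, whereas ASH1L/+ replicate 1 lay within the wild type range. CHD2/+ held 79.9, 80.5, 58.4 and 49.6, and CHD8/+ held 125, 99.3, 37.3 and 54.2. All 8 libraries of these 2 mutants lay below the lowest wild type library. The wild type mean was 294 ± 79.5 (SD, n = 4). ASH1L/+ and WDFY3/+ had means of 162 ± 61.2 and 125 ± 22.6, whereas CHD2/+ and CHD8/+ had 67.1 ± 15.6 and 78.9 ± 40.2 (SD, n = 4). On the log2 scale these 4 differed from wild type by -0.88, -1.20, -2.10 and -1.99 in that order, each with a standard error of 0.36. In this order of levels, the ranges of neighbours overlapped: wild type with ASH1L/+, ASH1L/+ with WDFY3/+, WDFY3/+ with CHD8/+, and CHD8/+ with CHD2/+.

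**Figure D3:**
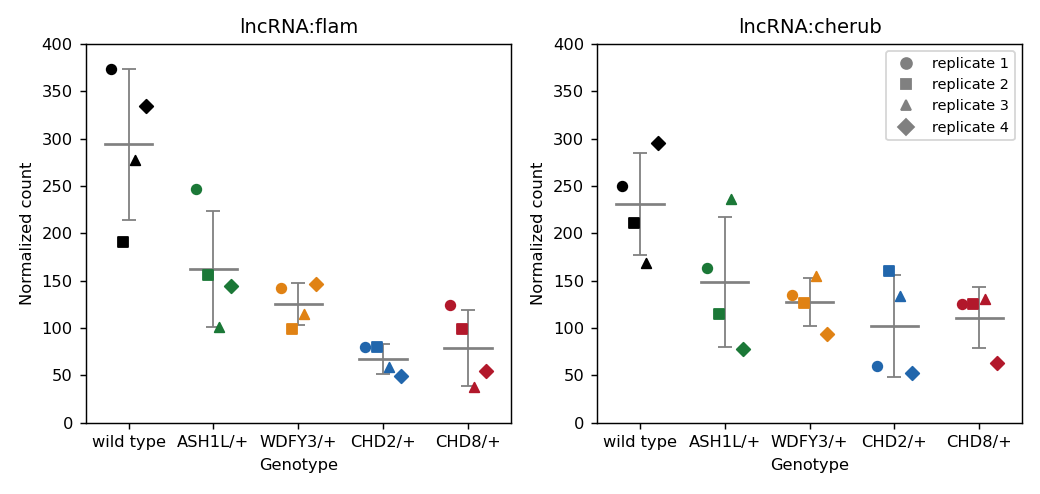
Normalized counts (y axis) of flam and cherub in the 4 libraries of each genotype (x axis). Symbols show the replicate number, and grey lines show the mean and SD of 4 libraries. The mean of wild type is highest for both, and the SD bars of wild type and ASH1L/+ overlap for both.

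The genes that act with flam were described from a list of 34 piRNA pathway genes, of which 21 were measured well enough to test. None of the 21 was called by limma in any mutant, with an unadjusted p under 0.05 for 1 gene each in ASH1L/+, WDFY3/+ and CHD8/+ and 0 genes in CHD2/+. In the order ASH1L/+, WDFY3/+, CHD2/+ and CHD8/+, their median log2 differences were -0.30, -0.13, -0.40 and 0.00. piwi, the nuclear effector that carries flam piRNAs, held 42.8 to 145.5 normalized counts over the 20 libraries. The pathway genes aub, zuc and krimp stayed at 8.2 or below. The ovary markers, of which tj is on the piRNA list too, had library sums of 29.9 to 136 normalized counts for wild type. The sums were 40.4 to 117 for ASH1L/+ and 20.5 to 119 for WDFY3/+. For CHD2/+ they were 15.7 to 65.9, and for CHD8/+ 18.6 to 134. These libraries are of heads, and tj was the only ovary marker measured well enough to test. The sums therefore do not show that ovarian cells were present. Whether cells that express tj have a part in the level of flam was not tested.

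cherub came nearest to a call among the members not chosen for their change. It lies on 3R from 11247631 to 11256123. Wild type replicates 1 to 4 held 249.8, 211, 168 and 295 normalized counts of cherub, and ASH1L/+ held 163, 115, 237 and 78.3. WDFY3/+ held 135, 126, 155 and 93.9, CHD2/+ held 60.3, 161, 134 and 52.4, and CHD8/+ held 125, 126, 131 and 62.7. Each library of the last 3 mutants was below the lowest wild type library. The log2 differences were -1.31 (adjusted p = 0.36 from limma) in CHD2/+, -1.08 (adjusted p = 0.83) in CHD8/+, -0.84 (adjusted p = 1) in WDFY3/+ and -0.72 (adjusted p = 1.00) in ASH1L/+, with a standard error of 0.39. With replicate number as a block, the adjusted p from limma was 0.77, 0.58 and 0.21 for ASH1L/+, WDFY3/+ and CHD8/+. The check of pairing warranted the block for these 3 mutants. For CHD2/+, which failed that check in 1 of 4 numbers, the adjusted p was 0.059. cherub therefore did not pass the test in any mutant. Over the 39 members, all 4 libraries lay outside the wild type range for 2 members of WDFY3/+ flies (cherub below, CR31044 above), 2 of CHD8/+ flies (cherub and CR44922, below), 1 of CHD2/+ flies (cherub) and 0 of ASH1L/+ flies. Among all genes tested this held for 2.22%, 3.01%, 5.54% and 1.6%, so these counts are near the background.

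None of the 5 most abundant RNAs was called in a mutant. noe held 170459, 65314, 122664 and 151135 normalized counts in wild type replicates 1 to 4 and 167643, 103040.0, 220330.0 and 126031 in ASH1L/+. WDFY3/+ held 162445, 125815, 243009 and 132008, CHD2/+ held 97351, 160329, 204885 and 52832, and CHD8/+ held 159569, 103571, 167990.0 and 133609. The 5 genotypes overlapped, and the log2 differences of noe from wild type ran from -0.07 in CHD2/+ to 0.42 in WDFY3/+ (standard error 0.42). mimi held 10442, 13407, 16564 and 30613 in wild type, 13014, 17499, 25058 and 20798 in ASH1L/+, and 14826, 20259.6, 29659 and 22464 in WDFY3/+. It held 13514, 19129.7, 23952 and 15634 in CHD2/+ and 10420.3, 11082, 18707 and 15301 in CHD8/+. The mutant ranges of mimi all overlapped the wild type range, with log2 differences of -0.28 to 0.37 (standard error 0.35).

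Hsromega, the scaffold of omega speckles, held 5197, 3659, 4703 and 4012 normalized counts in wild type and 4242, 4322, 2431 and 5018 in ASH1L/+. WDFY3/+ held 7225, 4762, 2359.9 and 4424, CHD2/+ held 2343, 4444, 2858 and 1776, and CHD8/+ held 4554, 3602, 7322 and 4722. Of the 4 CHD2/+ libraries, 3 were below the wild type range and 1 was within it. The log2 difference in CHD2/+ was -0.69 (standard error 0.35, adjusted p = 0.71 from limma), and those of ASH1L/+, WDFY3/+ and CHD8/+ were -0.17, 0.00 and 0.17. Of the 10 tested genes for hnRNPs and other proteins of omega speckles, 0 were called by limma in any mutant, with an unadjusted p under 0.05 for 1 gene in CHD2/+ and 0 in the other mutants, and median log2 differences of 0.03, 0.08, -0.41 and -0.28 in ASH1L/+, WDFY3/+, CHD2/+ and CHD8/+.

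CRG held 2167, 3439, 1761 and 3396 normalized counts in wild type, 2151, 2636, 1290.2 and 3586 in ASH1L/+, and 2851, 2494, 2100.2 and 4614 in WDFY3/+. It held 1925, 1216, 1587 and 2193 in CHD2/+ and 2257, 3263, 2009 and 1449.6 in CHD8/+. The genotypes overlapped, and the lowest log2 difference was -0.61 in CHD2/+ (standard error 0.35, adjusted p = 0.71 from limma). CR42862 held 2118, 4415, 1813 and 5078 in wild type, 2561, 5051, 1116 and 9906 in ASH1L/+, and 4005, 2914, 1819.9 and 9051 in WDFY3/+. It held 3308, 1029.9, 1436 and 6215 in CHD2/+ and 1756, 2751, 4425 and 1416 in CHD8/+. Its highest value was 9.62 times its lowest, and in 4 genotypes its highest library was replicate 4. CRG and CR42862 overlap exons of CASK and CG33229 on the same strand, so reads may have been shared with them.

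Less abundant RNAs with a large share of their variance by genotype included CR44922 and CR46064. CR44922 held 251, 253, 225 and 242 normalized counts in wild type, 234, 235, 233 and 249.6 in ASH1L/+, and 272, 201, 149.7 and 216 in WDFY3/+. It held 285, 183, 181 and 364 in CHD2/+ and 172, 204, 133 and 136 in CHD8/+. All 4 CHD8/+ libraries were below wild type, with a log2 difference of -0.61 (standard error 0.26, adjusted p = 1.00 from limma). CR46064 held 53.3, 62.4, 59.7 and 69.6 in wild type, 63.3, 54.0, 52.4 and 83.2 in ASH1L/+, and 69.7, 60.0, 104 and 95.2 in WDFY3/+. It held 53.6, 45.3, 54.5 and 61.4 in CHD2/+ and 66.6, 68.0, 60.6 and 58.6 in CHD8/+. Its largest difference from wild type was 0.39 in WDFY3/+ (standard error 0.24, adjusted p = 1), and the ranges overlapped.

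The next comparison asked whether any of the 5 genotypes differed from another. By limma's F test, 0 of the 39 members were called, where 0.313% of all genes were, and 2 members had an unadjusted p under 0.05, against 4.95% of all genes. Between pairs of mutants 0 of the 39 were called by limma in any of the 6 pairs, against 0.104% of all genes called in at least 1 pair. An unadjusted p under 0.05 was reached by 3 members between CHD8/+ and CHD2/+, 4 between CHD2/+ and WDFY3/+, 2 between CHD8/+ and ASH1L/+, 1 between CHD8/+ and WDFY3/+ and 0 in the other 2 pairs. The shares of all genes were 4.42%, 8.87%, 4.18% and 4.74% in these 4 pairs, 6.34% between CHD2/+ and ASH1L/+ and 2.65% between WDFY3/+ and ASH1L/+. The largest difference was that of CR44999, an X-linked RNA whose exons overlap those of Myc. It held 1299.8, 615, 494 and 783 normalized counts in CHD2/+ and 667, 310.1, 61.7 and 157 in CHD8/+, a log2 difference of -1.81 (standard error 0.58, adjusted p = 0.74 from limma). The lowest CHD2/+ library was below the highest CHD8/+ library. Leaving out single libraries moved this difference between -2.36 and -1.22.

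Replicate number was the stronger axis for these RNAs. The numbers are not labelled as a batch. The index numbers in the sample labels run in the order of replicate number, and the study's model has a batch term without giving the batch of each library. With genotype in the fit, the median share of a member's variance was 44.3% by replicate number and 16.0% by genotype, and 31 of the 40 members (77.5%) had the larger share by number. Over all genes tested the shares were 39.5% and 18.5%, and 73.2% of the genes had the larger share by number. Replicate number has 15.8% of the degrees of freedom and genotype 21.1%. The members thus resembled other genes in this respect. CR45197 had the largest share by number (80.9%), then CR43989 (71.5%) and CR45054 (66.2%). Apart from flam, cherub had the largest share by genotype (45.5%), then CR46064 (44.4%). Hsromega had the smallest share by number (5.63%).

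**Figure D4:**
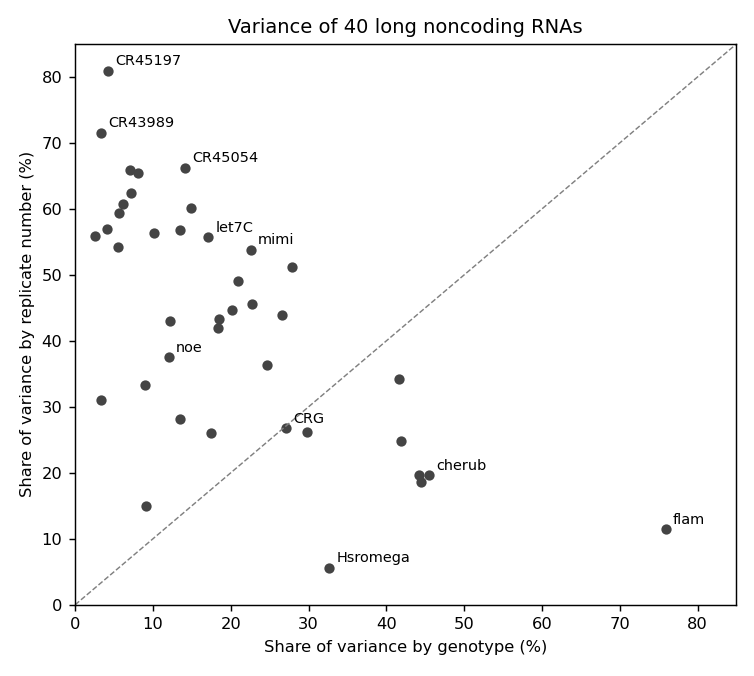
Share of the variance of log2(normalized count + 1) over 20 libraries by genotype (x axis, percent) and by replicate number (y axis, percent) for each of the 40 RNAs. The dashed line marks equal shares. 31 points lie above it, and flam, which its change by genotype chose, lies far to the right at 75.9%.

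An F test over the 4 replicate numbers, with genotype in the fit, called 26 of the 40 members (65%), against 51.5% of all genes. Without the 3 libraries that stood apart it called 30. The 26 include CR43411, CR44506 and CR44964, whose choice was not independent of these values. Each number was then compared with the mean of the other 3. Replicate 1 differed in 19 members (47.5%, with 39.9% of all genes called), 13 of them higher and 6 lower, where 23.5% of all genes were called higher and 16.4% lower. Without the 3 libraries, 21 members were called. The 13 include flam and CR44964, whose choice was not independent of these values. Replicate 2 differed in 0 members, as in 0% of all genes. By limma, 6 members had an unadjusted p under 0.05 there, against 12.8% of all genes, and without the 3 libraries 4 members were called. Replicate 3 differed in 12 members (30%, with 29.5% of all genes called), 7 higher and 5 lower, against 14% and 15.5% of all genes. The 7 include CR43411, which passed the level rule only with its replicate 3 libraries. After quantile normalization the call for replicate 3 was 5 higher and 9 lower. Replicate 4 differed in 5 members (12.5%, with 9.72% of all genes called), 1 higher and 4 lower, against 2.59% and 7.13%, and 2 of the 4 lower ones passed the level rule only through the other numbers. The shares of members called were near those of all genes for replicates 2, 3 and 4, and their differences from the background were not tested. For the counts without the 3 libraries, the shares of all genes are not given here. Those counts can therefore not be read as particular to the members.

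The RNAs higher in replicate 1 were led by CR45054, which lies on 3R from 10083381 to 10090525, 3235 bases before CR43459 on the same strand. In replicate 1 it held 341, 484, 420.4, 119.6 and 391 normalized counts in wild type, ASH1L/+, WDFY3/+, CHD2/+ and CHD8/+. In the same order it held 84.9, 123, 82.7, 79.2 and 90.3 in replicate 2, 52.6, 87.3, 91.7, 86.2 and 75.8 in replicate 3, and 158, 193, 224, 79.04 and 54.7 in replicate 4. Of the 5 replicate 1 libraries, 4 were above all others, while CHD2/+ was within their range. The log2 difference of replicate 1 was 1.72 (standard error 0.26, adjusted p = 9.4e-05 from limma), and that of replicate 3 was -0.98 (adjusted p = 0.0092). Its neighbour CR43459, which holds mir-277 and mir-34, had 0.40 in replicate 1 (adjusted p = 0.21) and -0.82 in replicate 3 (adjusted p = 0.020).

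let7C lies on 2L from 18455717 to 18473132 and held 275, 194, 193, 155 and 223 normalized counts in replicate 1, in the same order of genotypes. It held 50.6, 55.5, 46.8, 134 and 67.2 in replicate 2, 55.0, 107, 64.1, 160.2 and 33.6 in replicate 3, and 71.5, 87.8, 109, 122 and 34.4 in replicate 4. Within each genotype except CHD2/+, replicate 1 was the highest library by a wide margin. The CHD2/+ libraries held 122 to 160.2, with replicate 3 highest. The log2 difference of replicate 1 was 1.496 (standard error 0.28, adjusted p = 0.00043 from limma). Against wild type, let7C had log2 differences of -0.41 in CHD8/+ to 0.71 in CHD2/+ (standard error 0.59, none called). Of the 8 members that hold miRNA genes, let7C and CR43651 (mir-14, log2 difference 1.12, adjusted p = 0.0011) were called higher in replicate 1 and 0 lower, where 23.5% of all genes were called higher, so that this count is near the background.

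The other RNAs higher in replicate 1 were CR46003 (log2 difference 1.57), CR44964 (1.49), CR45109 (1.39), CR45102 (1.14), CR30055 (1.12), CR44417 (1.04), CR44999 (0.94), CR42549 (0.89), CR45939 (0.79) and flam (0.62). CR44964 reached 50 normalized counts in 11 libraries, replicate 1 libraries among them, and is compared with a mean that holds its low replicate 4. Its high replicate 1 thus followed in part from the choice and is a description. For flam this comparison uses the same libraries, and the same spread between them, as the call that added it. Its values here are therefore a description. The replicate 1 call of flam was lost in 7 of 29 alternatives. Among these were quantile normalization and 10 in place of 1 added before the log. Leaving out any of 4 single libraries also lost it (wild type replicate 2, ASH1L/+ replicate 1, and CHD8/+ replicates 1 and 3). The log2 difference of flam ran from 0.51 to 0.72 over all libraries left out. CR46003 and CR46006, which holds mir-276a, lie 15532 bases apart on 3L on opposite strands. CR46006 had 0.39 in replicate 1 (adjusted p = 0.26). The call of CR44417 was lost without wild type or WDFY3/+ replicate 1, and so was that of CR44964. That of CR44999 was lost without any one of wild type, ASH1L/+, CHD2/+ and CHD8/+ replicate 1, at log2 differences of 0.62 to 1.39 over all libraries left out.

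The 6 RNAs lower in replicate 1 were CR33942 (log2 difference -1.28), CR32194 (-1.08), CR45197 (-1.06), CR43989 (-0.75), CR45018 (-0.70) and mimi (-0.65). The call of mimi was lost after quantile normalization and without wild type replicate 4. CR45197 (X, 2675188 to 2676657) held 479, 441, 466, 545 and 507 normalized counts in replicate 1, in the order wild type, ASH1L/+, WDFY3/+, CHD2/+ and CHD8/+. It held 1498, 1036, 957, 721 and 1151 in replicate 2, 818, 742, 1051, 774 and 955 in replicate 3, and 1289.7, 1371, 1361, 1006 and 916 in replicate 4. All 5 replicate 1 libraries were below the other 15, CHD2/+ included (adjusted p = 7.8e-05 from limma, standard error 0.16). CR43989 (3L, 11163849 to 11164801), antisense to IRSp53, held 171, 160.0, 132, 178 and 185 in replicate 1 and 240.1, 198, 188, 233 and 307 in replicate 2. It held 330.3, 284, 391, 236 and 273 in replicate 3 and 280.0, 254, 389, 378 and 282 in replicate 4. Its replicate 1 libraries too were below all others (adjusted p = 0.0013, standard error 0.16). These were the 2 members of 40 for which all 5 libraries of a number lay outside the other 15, and both were of replicate 1, where 3.69% of all genes did so. For replicates 2, 3 and 4 there were 0 members, against 0.073%, 0.25% and 0.261% of all genes.

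CR45018 was highest in replicate 2, with 526, 491, 422, 591 and 657 normalized counts there, 245, 222, 225, 207 and 215 in replicate 1, 186, 270.0, 237, 212 and 517 in replicate 3 and 383, 418, 417, 207 and 301 in replicate 4. Apart from CHD8/+ replicate 3, every library of the other numbers was below the lowest of replicate 2. The log2 difference of replicate 2 was 0.97 (standard error 0.20, adjusted p = 0.12 from limma).

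**Figure D5:**
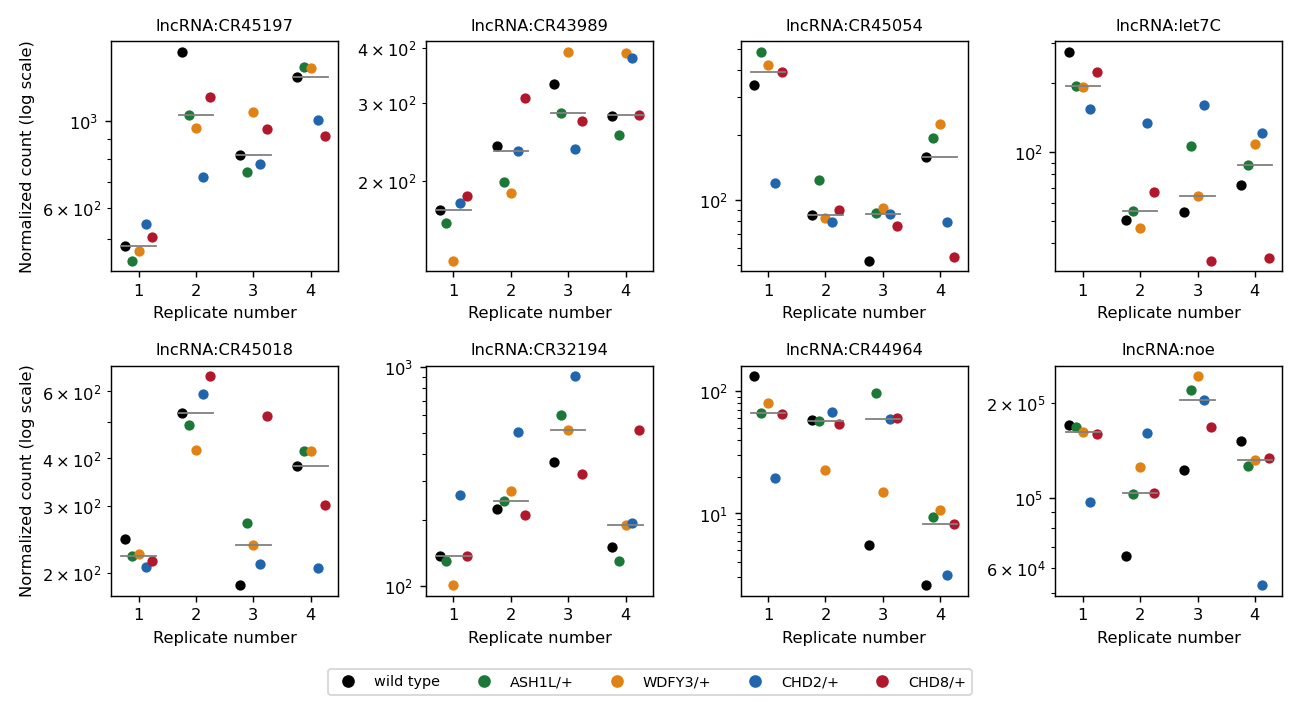
Normalized counts (y axis, log scale) of 8 RNAs in the 20 libraries by replicate number (x axis). Points are single libraries coloured by genotype, and grey bars are the median of 5 libraries. CR45197 and CR43989 are lowest in replicate 1, CR45054 and let7C are highest there, CR45018 is highest in replicate 2, CR32194 in replicate 3, and CR44964 is lowest in replicate 4.

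Some RNAs were called in both replicate 1 and replicate 3. CR44999, CR45054, CR45109 and CR46003 were called higher in replicate 1 and lower in replicate 3, CR32194 and CR33942 were called lower and then higher, and 0 members were called the same way in both. Of all genes, 19.5% were called in opposite directions and 0.0313% in the same direction, so the 6 members of 40 are no more than the background. Each number is compared with a mean that holds the other, so the 2 comparisons share libraries and tend to differ in sign by construction. CR43870 (log2 difference 1.69), CR33942 (1.65), CR43411 (1.57), CR32194 (1.33), CR44832 (1.26), CR43650 (0.73) and CR31781 (0.60) were higher in replicate 3. CR43411 reached 50 normalized counts in 12 libraries and passed the level rule only with its replicate 3 libraries. Its high replicate 3 thus followed in part from the choice and is a description. The values of several were far above the rest in ASH1L/+ replicate 3. CR44832 held 1718 normalized counts in that library and 299.6, 483, 784 and 408 in wild type, WDFY3/+, CHD2/+ and CHD8/+ of the same number. CR33942 held 1490.1 there and 256, 442, 696 and 337 in the others. Without ASH1L/+ replicate 3, the calls of CR43411 (log2 difference 1.57 with it, 1.10 without it), CR31781 and, among the lower RNAs, CR44999 and CR45109 were lost. The calls of CR31781 and CR44999 in replicate 3 were also lost when several other single libraries were left out, at log2 differences down to 0.44 for CR31781 and up to -0.57 for CR44999. That of CR43459 was lost without wild type or WDFY3/+ replicate 3. CR32194, which overlaps exons of CG34253, held 369, 606, 517, 904 and 326 in replicate 3, in the order wild type, ASH1L/+, WDFY3/+, CHD2/+ and CHD8/+, and 101 to 260.4 in replicate 1. All replicate 3 libraries were above all replicate 1 libraries.

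Of the 5 RNAs called in replicate 4, CR44964 and CR44506 reached 50 normalized counts in no library of that number. They entered the list only through the other numbers, so a low replicate 4 followed from the choice, and their values are a description that supports nothing. CR44964 held 2.59, 9.28, 10.6, 3.12 and 8.13 normalized counts in replicate 4, in the order of genotypes above. It held 132, 66.8, 80.5, 19.6 and 64.5 in replicate 1, 58.0, 57.0, 22.8, 67.7 and 53.4 in replicate 2, and 5.49, 97.1, 15.1, 59.0 and 60.1 in replicate 3. Apart from wild type replicate 3, every library of the other numbers was above replicate 4. Its log2 difference was -2.75, or -1.83 with 10 in place of 1 added before the log, and that of CR44506, which held 15.6 to 22.6 in replicate 4, was -1.54. Among the other 3 called, CR30055 (-0.85) and CR43650 (-0.64), the RNA that holds mir-8, were lower and CR45197 (0.63) was higher. The calls of CR30055 and CR43650 were lost in 19 and 20 of 29 alternatives, and that of CR45197 in 4. The count of 5 became 12 without CHD8/+ replicate 4, 1 without ASH1L/+ replicate 4, 2 without any one of wild type, WDFY3/+ and CHD2/+ replicate 4, and 3 without any one of wild type replicates 1 and 2, ASH1L/+ replicates 1 and 3, WDFY3/+ replicates 1 and 2, CHD2/+ replicate 3 and CHD8/+ replicate 1. Without the 3 libraries that stood apart it was 13. The shares of all genes called in these refits are not given here.

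Coding genes beside the members were compared in the same fit. Of those that share exons with a member on the same strand, Myc (log2 difference 0.64 in replicate 1), ftz-f1 (1.31), 2mit (0.76) and CG34253 (-1.48) were called in replicate 1 in the same direction as CR44999, CR45939, CR45109 and CR32194. Of all genes, 23.5% were called higher and 16.4% lower in replicate 1. Reads may have been shared within these pairs, and the part of shared reads in their agreement was not tested. sgg and mura, which share exons with CR45197 and CR42549, were not called, at 0.37 (adjusted p = 0.090 from limma) and 0.14 (adjusted p = 0.55), where CR45197 was -1.06 and CR42549 was 0.89. CG33229 was called higher at 0.86, where CR42862 was -0.21 and not called. CG31140 ends 271 bases upstream of mimi on the same strand and was called higher in replicate 1 at 0.89 and lower in replicate 3 at -1.12, where mimi was -0.65 and 0.49. Ntf-2r, which ends 298 bases upstream of let7C, was called higher in replicate 1 at 2.15, as let7C was. It was called lower in replicate 4 at -2.23, where let7C was -0.34 and not called. Ntf-2r lies near the floor, with a mean of 7.31 normalized counts (0 to 35.3). Of the other genes that end within 1000 bases upstream of a member, CG14073 (0.25), PpV (-0.25) and Mnt (0.41) were not called, where CR45939 was 0.79, CR44816 was 0.28 and CR45102 was 1.14. For CRG and CASK the log2 differences of replicate 1 were -0.02 and 0.15, neither of them called.

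The genomic spans of the annotated genes, introns included, differed between the RNAs that rose and those that fell in replicate 1. The 13 higher RNAs had a median span of 7145 bases (831 to 158841), the 6 lower ones 1516.5 bases (561 to 4000), and the 21 not called 5106 bases. In replicate 3 the 5 lower RNAs had a median span of 21024 bases and the 7 higher ones 1754. These medians are a description, with no test, and the spans of all genes called were not compared. A span is not the length of the transcript: CR44999 spans 149629 bases, and its longest spliced transcript has 2025. The longest spliced transcripts had 831 (CR44417) to 21024 bases (CR46003) among the RNAs higher in replicate 1. Among the lower ones they had 503 (CR33942) to 3637 bases (CR45018), so the ranges overlapped.

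Markers of cell types are to be read against the 39.9% of all genes called in replicate 1 (23.5% higher and 16.4% lower) and the 29.5% called in replicate 3. The muscle marker list summed to 8472 to 13018 normalized counts in replicate 1 and 13636 to 64964 in the other libraries, and 4 of its 6 tested genes were called lower in replicate 1. In neurons, 3 of 5 markers (nSyb, Syt1 and brp) were called higher in replicate 1 and lower in replicate 3, with sums of 6745 to 14620 in replicate 1, 3956 to 8299.5 in replicate 2, 4191 to 6127 in replicate 3 and 4815 to 14686 in replicate 4. Of the glia markers, alrm, nrv2 and Gs2 were called lower and moody higher among 6 in replicate 1, where the list summed to 1648 to 2913, against 1685 to 4949 elsewhere. The 9 tested cuticle and trachea markers had 4 called lower in replicate 1, with sums of 818 to 1730.1 there and 946 to 11184 elsewhere. Hml, which marks haemocytes, was called higher in replicate 1 at a log2 difference of 2.01, 1 of 4 haemocyte markers tested. Of 5 fat body markers tested, apolpp was called higher and Lsp2 lower, and of 6 photoreceptor markers ninaC was called lower. In the ovary list the 1 tested gene, tj, was called higher, and in the testis list 0 of 2 were called in replicate 1. No defining marker of neurons, glia, photoreceptors or muscle was at 0 in every library. The part of these cell types in the differences of the RNAs between numbers was not tested.

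Lists of genes that act on or with such RNAs are to be read against the same shares, from which no difference was tested. In replicate 1, 6 of the 21 piRNA pathway genes were called higher and 2, piwi and Nxt1, lower. Of the 10 genes of omega speckle proteins, Pep, Iswi, Hsf and Hsp83 were called higher and TBPH lower, while Hsromega was at 0.22 (adjusted p = 0.50 from limma). Among 17 genes of the nuclear RNA exosome and its cofactors, which degrade noncoding transcripts, Rrp6 and Zcchc7 were called higher and Rrp40, Rrp45, Csl4 and Ski6 lower. The 5 tested genes of the dosage compensation complex had msl-1 and msl-2 called higher and msl-3 lower. In replicate 3 the exosome list had 5 genes called higher and 4 lower. In the 4 mutants none of the 17 exosome genes and none of the 5 dosage compensation genes was called by limma, with an unadjusted p under 0.05 for 0, 2, 2 and 1 of the former in ASH1L/+, WDFY3/+, CHD2/+ and CHD8/+ and for 0 of the latter.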

How the data were processed

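Libraries of adult heads were made with a 3' mRNA kit. The authors quantified transcripts of BDGP6 with Salmon 0.12.0, and their notes also name DESeq2. The deposited signal is a normalized count, which is an estimated count divided by a library factor and, judged from the values, a further factor for each gene. It is not a whole number, and no count model was used. The 5 tables of single heterozygotes and wild type share 1 scale. Symbols were matched for 17252 genes. Gene positions, exons and strands are from the Ensembl annotation of the same assembly. No sequence of these RNAs is shown here.

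The 9588 genes that reached 10 normalized counts in 4 or more of 20 libraries were fitted by limma 3.58.1 (R 4.3.3) with a variance trend, on log2(value + 1). Fold changes of RNAs with low values are understated on this scale. All 5 genotypes shared 1 estimate of the spread. Replicate numbers were compared in a fit with genotype and number. P-values were adjusted over all genes. The fit was also run on simulated data. There the noise was independent between genes and libraries, unlike here, where replicate number held much of the variance. That run therefore adds no support to the calls above. Python 3.11.15 with pandas 2.3.3, numpy 2.4.6 and matplotlib 3.10.9 did the rest. Library sums were 3982750 to 8558270, and how many reads lie behind each value was not estimated here. The replicates are labelled as biological, and p-values measure the spread between them.

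Whether numbers pair libraries was decided from the correlation of deviations from the group means with those of wild type, which had to exceed 0.1 for every pair. ASH1L/+ passed with 0.78, 0.34, 0.49 and 0.64. WDFY3/+ passed with 0.74, 0.32, 0.44 and 0.56, as did CHD8/+ with 0.73, 0.25, 0.28 and 0.21. CHD2/+ failed, since 1 of its values (0.33, 0.073, 0.28 and 0.46) was too low.

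The members and lists were chosen with earlier results of these data known. Values in every library are given for flam, the 5 most abundant members, those with the largest variance shares, and those with a name in place of a CR number. Members called by number, and those that lie near a call, are named with values as well, chosen after their values were seen. Alternatives were other scalings, values added before the log, filters, thresholds, a fit of 2 groups, replicate number as a block and leaving out each library.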

Additional observations from a re-analysis of the deposited data

Results flagged for a closer look

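Within genotypes of 4 libraries and within numbers of 5, the highest or lowest library lay far from the others in 28 of 360 groups. Chance alone would mark about 18 (1 in 20). Of the 200 groups within genotypes 11 were marked, and of the 160 within numbers 17. The groups share libraries and are not independent, and no difference from chance was tested. CHD2/+ replicate 1 stood apart from the other replicate 1 libraries in 7 RNAs. It was low for noe (97351 normalized counts, others 159569 to 170459), CR46006 (152, others 352 to 482), CR31781 (211, others 328 to 375), CR45102 (105, others 374 to 555), CR43651 (219.8, others 365 to 434), CR45054 (119.6, others 341 to 484) and CR45109 (127, others 273 to 346). CHD2/+ replicate 4 was low among its number for noe (52832) and Hsromega (1776), and CHD2/+ replicate 2 was high among its number for CR32194 (505) and CR46006 (486), and among CHD2/+ for CR45018 (591).

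CHD8/+ replicate 4 was low among CHD8/+ for cherub (62.7), CR44506 (22.2) and CR44964 (8.13), and among its number for CR43314 (72.4). ASH1L/+ replicate 3 was high among ASH1L/+ for CR44832 (1718, others 209.6 to 236) and CR43870 (613, others 78.5 to 95.6). CR45102 was high in replicate 1 of wild type (374) and of CHD8/+ (473) within those genotypes, and CR44999 in wild type replicate 1 (781). CR44922 was high in ASH1L/+ replicate 4 (249.6), within a group that otherwise spans 233 to 235. CR43411 was low in WDFY3/+ replicate 4 (19.8) within its genotype. Among libraries of the same number, CR43314 was high in ASH1L/+ replicate 1 (151), CR31044 (126) and CR44754 (136) were high in WDFY3/+ replicate 4, CR46064 was high in WDFY3/+ replicate 3 (104) and CR44964 was low in WDFY3/+ replicate 2 (22.8).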

How the results depend on the processing

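For each of the 4 mutants, for the 5 genotypes together and for pairs of mutants, the count of members called stayed at 0 under every alternative run. With replicate number as a block it was 0 as well, and the block changed no call of a member. Leaving out each library gave 21 to 31 members for any difference among replicate numbers, 16 to 21 for replicate 1, 0 to 1 for replicate 2, 8 to 16 for replicate 3 and 1 to 12 for replicate 4. The count for replicate 2 became 1 with no filter and 4 without the 3 libraries that stood apart. That for replicate 4, 5 in the fit reported, became 3 with no filter, 3 with a filter of 50 in 10 libraries, 3 without the variance trend, 9 at an adjusted p under 0.1 and 13 without the 3 libraries. The shares of all genes called under these alternatives are not given here, and the cause was not tested. Of 1343 refits of 46 named fold changes, 0 turned in direction, 111 lost a call and 0 gained one. The fold changes of flam ran from -2.29 to -1.96 in CHD2/+ and from -2.26 to -1.69 in CHD8/+. The call that led to its choice was lost in 1 of 30 alternatives for CHD2/+ (without wild type replicate 4) and in 7 of 30 for CHD8/+ (without wild type replicate 1, 3 or 4, without CHD8/+ replicate 3 or 4, without the 3 libraries, and in a fit of the mutant and wild type alone). Quantile normalization moved the median log2 difference of all genes from 0.01 to -0.11 in replicate 1 and from -0.06 to 0.06 in replicate 4. In the other comparisons, and under median ratio scaling, it moved by less than 0.1. The spread between libraries limits what the comparison of genotypes could detect.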
